A study of Homo sapiens with 70 samples.

Results

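The libraries described here are those titled sgZBTB11 #2 at 5 days, chosen by title alone. They are 3 libraries of cells given doxycycline (DOX) and 3 of cells given DMSO, 6 of the 70 libraries in the series. All come from MIA PaCa-2, an established line of pancreatic ductal adenocarcinoma, here in a form resistant to Sotorasib, a cancer drug. The cells carry dCas9-KRAB, a Cas9 without nuclease activity fused to a repressor domain, and DOX switches its expression on. A guide RNA then brings the repressor to a chosen gene. Comparison groups at day 5 were the cells with sgZBTB11 #1 (3 DOX and 2 DMSO libraries) and those with sgNS, taken here as the control guide (3 DOX and 3 DMSO libraries). Below, guide 2 and guide 1 stand for sgZBTB11 #2 and sgZBTB11 #1. Every group carries the repressor system, and per the labels the groups of a guide differ only by DOX or DMSO. A change net of sgNS is the change with guide 2 minus that in sgNS cells. The labels tell neither whether the cells were 1 clone or mixed, nor whether a group's replicates were grown separately. The spread behind each p-value is therefore that among these libraries and may be technical.

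ZBTB11 is a DNA-binding protein with zinc fingers and a BTB domain, through which proteins of its family pair with partners. It has been described as an activator of nuclear genes that act in mitochondria, among them genes of respiratory complex I and of the mitochondrial ribosome, working with GABP, a factor of the ETS family. The mitochondrial ribosome translates the few mRNAs of mitochondrial DNA, while most respiratory chain subunits are made in the cytosol from nuclear genes and imported. The study asked how the transcriptome of drug-resistant pancreatic cancer cells changes over time when ZBTB11 is lowered.

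The 17 libraries of day 5 held 12747347 to 20627642 counts each, and the 6 of guide 2 held 13729945 to 16953821. Levels below are CPM, counts scaled to the TMM-adjusted size of each library, and changes are log2 differences, DOX minus DMSO, with standard errors. Each test was edgeR's quasi-likelihood F test over 16809 genes with Benjamini-Hochberg adjustment, and a gene rose or fell where the adjusted p was under 0.05. The sgNS DMSO replicate 2 stood apart from its group: the chi-square of its counts against the other two was 3.03 and 3.49 per degree of freedom, where every other pair within a day 5 group gave at most 1.81.

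ZBTB11 itself (ENSG00000066422.7, chr3:101648889-101677132, GRCh38.p14, minus strand) was measured at 50.6, 48.3 and 48.4 CPM in the DMSO libraries of guide 2 and at 26.5, 25.8 and 26.7 CPM in the DOX libraries. All 3 DOX libraries lay below all 3 DMSO libraries, by more than the spread within either group. The log2 change was -0.90 ± 0.059 (adjusted p = 4.9e-17). With guide 1 the same gene went from 43.5 and 46.8 CPM to 35.9, 33.2 and 32.4 CPM, a log2 change of -0.42 (adjusted p = 6.5e-05). The difference between the guides was -0.48 (adjusted p = 0.00026), so the fall with guide 2 was the larger of the pair. ZBTB11 fell slightly in sgNS cells too, by 0.15 on the log2 scale (adjusted p = 0.032), and the change net of sgNS was -0.75 (adjusted p = 8.5e-11). Of the 11 tested genes in the list of ZBTB11 neighbours, TRMT10C (-0.25), NIT2 (-0.13) and RPL24 (-0.11) fell with guide 2, and the count of 3 became 0 when transcript length and GC content entered as an offset. TRMT10C is a subunit of the RNase P of mitochondria, and its adjusted p was 0.033. The antisense transcript ZBTB11-AS1 lay at 1.11 to 2.23 CPM in DMSO and 1.27 to 2.14 CPM in DOX and did not pass the test (0.06, adjusted p = 0.94). ZBTB11 and ZBTB11-AS1 overlap only at chr3:101676430-101677132. The strand setting of the counting is not given in the sources used here, so reads of the 2 genes in that stretch may not have been told apart.

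**Figure D1:**
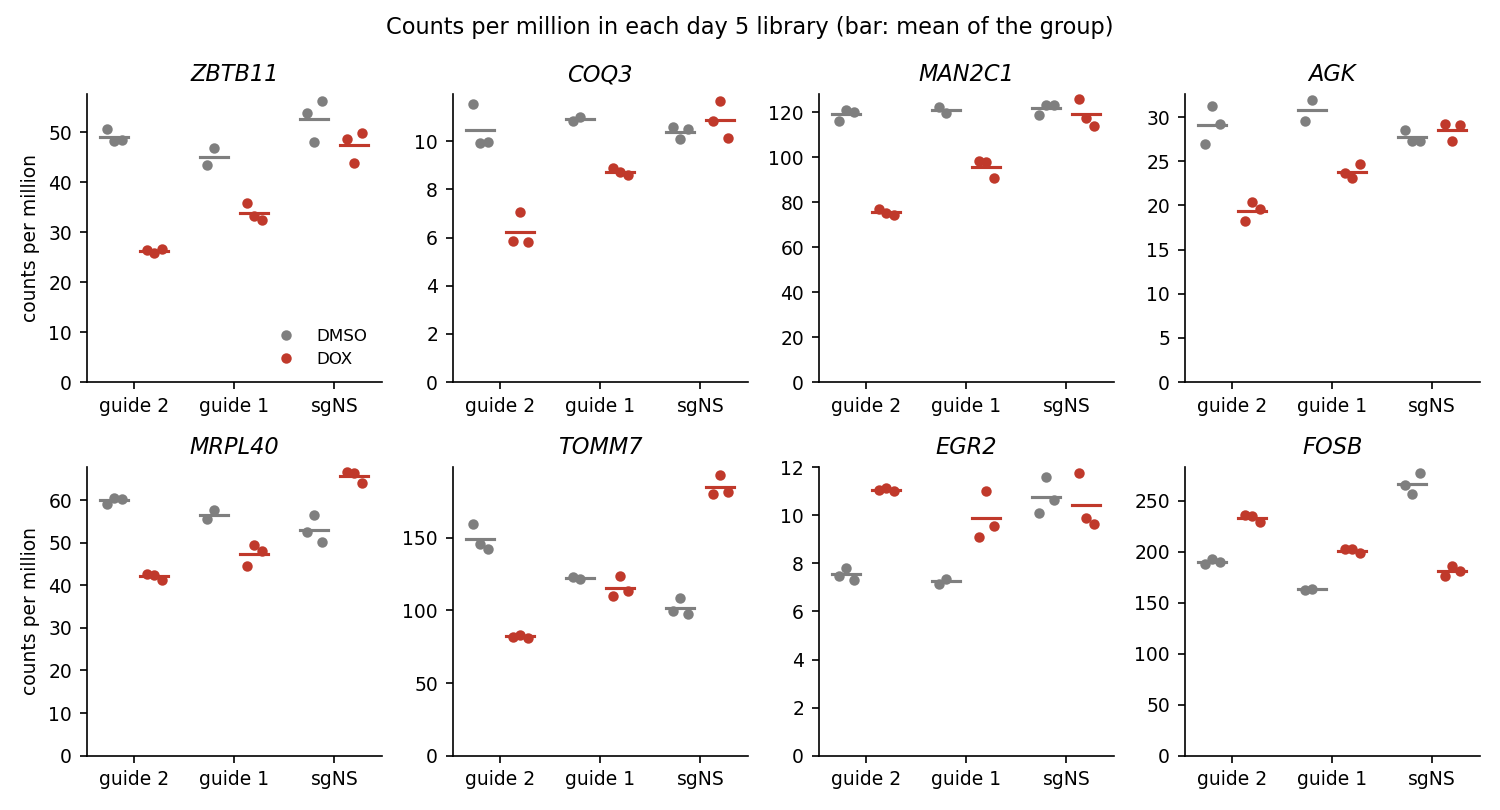
CPM (y axes, from 0) of 8 genes in each day 5 library, by guide and treatment (grey DMSO, red DOX); points are libraries and bars are group means. With guide 2 the DOX libraries lie below the DMSO libraries for ZBTB11, COQ3, MAN2C1, AGK, MRPL40 and TOMM7 and above them for EGR2 and FOSB, whereas in sgNS cells TOMM7 is higher and FOSB lower with DOX.

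With guide 2, 1513 of the 16809 genes changed at day 5 (9.0%). Of these, 505 rose (3.0%) and 1008 fell (6.0%), and 3477 genes had an unadjusted p under 0.05. With limma on log2(TPM + 1) the split was 432 higher and 448 lower. Most changes were small. The median was 0.20 for the genes that rose and -0.23 for those that fell, 35 and 75 of them exceeded 0.5 on the log2 scale, and 11 and 8 exceeded 1. Protein-coding genes made up 471 of the genes that rose and 945 of those that fell, and the median over all tested genes was -0.002. By another measure, the CPM of the 3 DOX and 3 DMSO libraries did not overlap for 4188 genes (24.9%), 1848 of them higher with DOX (11%) and 2340 lower (13.9%). Among the 15 largest rises at a mean of at least 5 CPM, 6 were readthrough transcripts, pseudogenes or loci without a gene name, as were 3 of the 15 largest falls. Their reads can be shared with other genes, so no values are given for them.

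**Figure D2:**
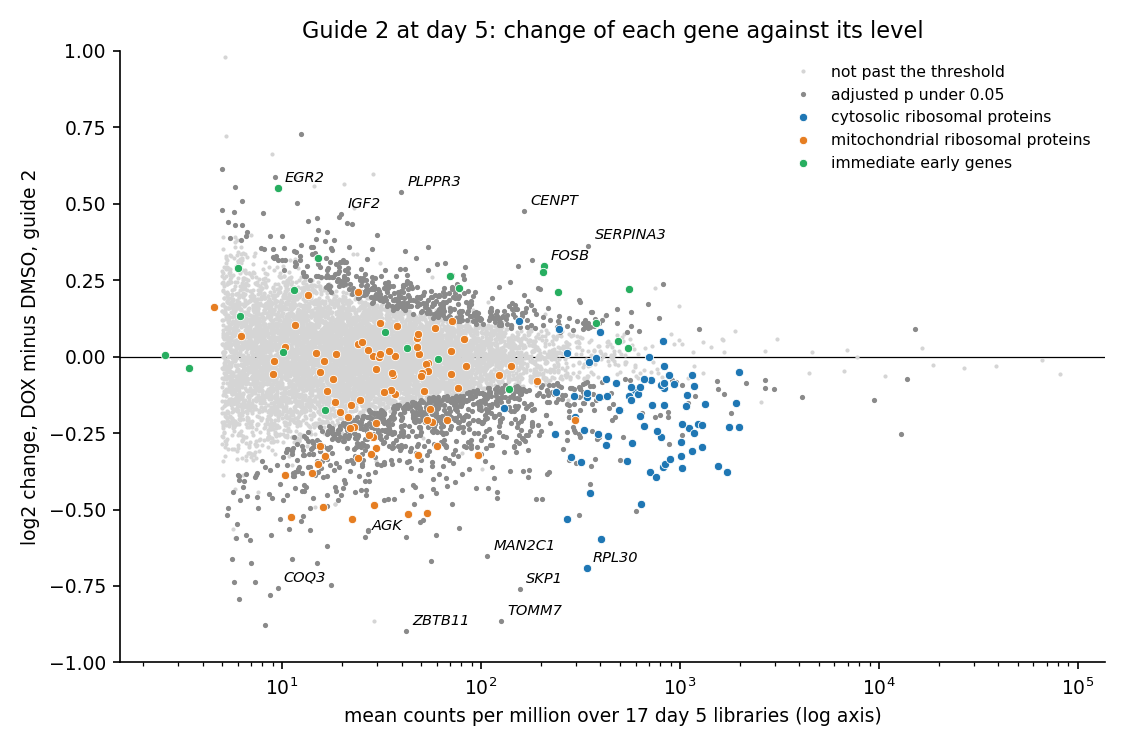
Log2 change with guide 2 at day 5 (y axis) against the mean level of each gene over the 17 day 5 libraries (x axis, CPM, log scale), for 11117 genes at 5 CPM or more, of which 1455 are past the threshold (dark), plus the members of 3 lists at any level (coloured). Cytosolic ribosomal protein genes sit mostly below 0 at high levels, and 5 genes not past the threshold lie beyond the y axis.

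A first group of genes fell with both ZBTB11 guides. Genes that passed in the same direction with guide 2, with guide 1 and net of sgNS numbered 59 lower (0.351%) and 18 higher (0.107%), but only 2 lower and 6 higher with limma on log2(TPM + 1). The lower ones with the largest change after ZBTB11 were MAN2C1, AGK, C17orf75, TSEN15, EEFSEC, MRPL48 and MRPL40. The libraries of the 2 ZBTB11 guides are separate, but the 77 genes of both directions came to 19, 35, 42 and 43 without guide 1 DMSO replicate 1, DMSO replicate 2, DOX replicate 1 and DOX replicate 3.

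MAN2C1, a mannosidase of the cytosol that trims free glycans, was measured at 116.0, 120.8 and 120.1 CPM in DMSO and at 77.1, 75.2 and 74.4 CPM in DOX. The groups did not overlap, and the DOX libraries lay close to each other. The log2 change was -0.65 ± 0.038 (adjusted p = 3.6e-19), against -0.34 with guide 1 (adjusted p = 1.0e-07) and -0.03 in sgNS cells (adjusted p = 0.61). The fall was larger than with guide 1 by 0.31 on the log2 scale (adjusted p = 0.00024).

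AGK, an acylglycerol kinase that is also a subunit of the TIM22 import complex in the mitochondrial inner membrane, went from 27, 31.2 and 29.2 CPM to 18.2, 20.4 and 19.6 CPM. No DOX library reached a DMSO library. Its log2 change was -0.59 ± 0.065 (adjusted p = 8.4e-10), with -0.37 for guide 1 (adjusted p = 0.0016) and 0.05 for sgNS. C17orf75, part of a complex that tethers vesicles at the Golgi, changed by -0.57 (adjusted p = 1.7e-09). TSEN15, a subunit of the endonuclease that splices tRNAs, changed by -0.57 (adjusted p = 1.6e-09). EEFSEC, the elongation factor that delivers selenocysteine, changed by -0.53 (adjusted p = 0.00029). For each of these 4 genes the difference between guide 2 and guide 1 did not pass the test (adjusted p from 0.085 to 0.89).

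COQ3, a methyltransferase of coenzyme Q synthesis in mitochondria, was measured at 11.5, 9.94 and 9.96 CPM in DMSO and at 5.84, 7.07 and 5.82 CPM in DOX. All DOX libraries lay below all DMSO libraries. The log2 change was -0.76 ± 0.10 (adjusted p = 2.1e-07), that of guide 1 was -0.32 and did not pass (adjusted p = 0.15), and that of sgNS was 0.06. COQ3 was the only 1 of 13 tested genes of coenzyme Q synthesis that passed. Among other genes that fell with guide 2 and did not pass with guide 1 were TMA16, which takes part in ribosome assembly (-0.74, adjusted p = 9.7e-06; guide 1 -0.42, adjusted p = 0.097), and LINC00920, a long noncoding RNA (-0.67, adjusted p = 9.6e-05; guide 1 -0.27). The difference between guides did not pass the test for COQ3 (-0.44, adjusted p = 0.12), TMA16 or LINC00920, so these falls are not shown to be particular to guide 2.

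DDX1, AKR1B1, ACSF3 and VWA8 also fell with both guides and were chosen after their values were seen. DDX1, an RNA helicase of the tRNA ligase complex, changed by -0.40 with guide 2 and -0.25 with guide 1. AKR1B1, aldose reductase, changed by -0.38 and -0.33, and it also fell in sgNS cells (-0.16, adjusted p = 0.00021). ACSF3, which makes malonyl-CoA in mitochondria, changed by -0.29 and -0.27, and VWA8, a mitochondrial ATPase, by -0.36 and -0.38. All 8 values passed the test, and net of sgNS all passed but VWA8 (adjusted p = 0.057).

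Most genes of mitochondrial lists that passed fell. Of 52 tested genes for the large subunit of the mitochondrial ribosome 16 fell and 0 rose (median -0.05), and of the 30 of the small subunit 11 fell and 0 rose (median -0.11), beside 6.0% lower and a median of -0.002 over all genes. With guide 1, 3 large-subunit and 0 small-subunit genes fell and 0 rose, where 0.773% of all genes fell. In sgNS cells 18 and 12 of them rose and 0 fell, where 8.87% of all genes rose. MRPL40 stood at 59.2, 60.4 and 60.4 CPM in DMSO and at 42.8, 42.4 and 41.2 CPM in DOX. The libraries of each group were close together and the groups did not overlap. Its log2 change was -0.51 ± 0.047 (adjusted p = 3.8e-12), with -0.26 for guide 1 (adjusted p = 0.0038) and a rise of 0.31 in sgNS cells (adjusted p = 2.6e-07). MRPL48 (-0.52), MRPL30 (-0.49), MRPL58 (-0.49) and MRPL33 (-0.53) fell as well. Among the small subunit MRPS7 fell most, by 0.51 on the log2 scale (adjusted p = 9.5e-10), then MRPS18C by 0.39 and MRPS23 by 0.32, though MRPS23 was 0.05 higher when deposited TPM values were used. MRPL30 and MRPL48 did not pass in sgNS cells, while MRPL33 rose there by 0.70 and MRPS7 by 0.40. Scored on log2(TPM + 1), 12 large-subunit genes fell and 3 rose with a median of 0.00, and 5 small-subunit genes fell.

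In the respiratory chain, beside 6.0% lower and 3.0% higher over all genes, 8 of 37 complex I subunits fell and 3 rose (median -0.03), but with transcript length as an offset the split turned to 8 rising and 6 falling. NDUFC2 (-0.46), NDUFB3 (-0.44), NDUFB6 (-0.34) and NDUFA12 (-0.31) fell. NDUFS4, an accessory subunit of the same complex, was measured at 15.0, 16.3 and 14.2 CPM in DMSO and 19.9, 20.1 and 21.6 CPM in DOX. Here every DOX library was the higher, and the log2 change was 0.43 ± 0.077 (adjusted p = 4.0e-05). NDUFS4 also rose in sgNS cells (0.22, adjusted p = 0.0085), and its change net of sgNS did not pass (0.22, adjusted p = 0.12). With guide 1 it changed by -0.03, and the sgNS DMSO libraries already stood at 28.7 to 30.7 CPM. Of the 18 complex I assembly factors 3 fell, with NDUFAF4 (-0.54) and TMEM70 (-0.50) the largest, and 0 rose. Complexes II and III had 6 of 23 genes lower and 0 higher. These included SDHAF3 (-0.57) and SDHC (-0.32) of succinate dehydrogenase, and UQCRH (-0.36) and UQCRC2 (-0.32) of complex III.

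For complex IV, 10 of 35 genes fell and 1 rose, beside the same 6.0% and 3.0% over all genes. COX14, an assembly factor, went from 17, 14.1 and 18.1 CPM to 10.2, 10.1 and 10.5 CPM, a log2 change of -0.68 ± 0.090 (adjusted p = 1.1e-07). The DOX libraries were tightly grouped and below all DMSO libraries. COA3, another assembly factor, changed by -0.35 and the subunit COX7C by -0.26. Of the 20 ATP synthase genes 10 fell and 1 rose, led by the subunit ATP5F1E (-0.51, adjusted p = 6.1e-20), the assembly factor ATPAF1 (-0.42) and the stalk subunit ATP5PB (-0.36). All of these except ATPAF1 rose in sgNS cells by 0.38 or more on the log2 scale, and ATPAF1 rose by 0.20. With guide 1, 0 genes passed among complex I subunits, complexes II and III, complex IV and ATP synthase. In sgNS cells 15, 11, 16 and 13 genes of these lists rose and 0 fell, where 8.87% of all genes rose.

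Most other mitochondrial lists held more genes that fell than rose, and over all genes 6.0% fell and 3.0% rose. The SLC25 carriers did not: over the 43 gene entries of 42 tested names, 5 rose and 4 fell (median -0.005). Of 38 import genes 8 fell and 1 rose, of 40 genes of mitochondrial translation and tRNA charging 5 fell and 1 rose (1 and 2 on log2(TPM + 1)), and of 32 genes of mitochondrial DNA and transcription 3 fell and 0 rose. MTIF2, the initiation factor of mitochondrial translation, changed by -0.34, GTPBP3, a tRNA modifier, by -0.25, and SSBP1, which coats single-stranded mitochondrial DNA, by -0.38. GTPBP3 also fell in sgNS cells (-0.18, adjusted p = 0.023), and net of sgNS its change of -0.07 did not pass (adjusted p = 0.60). MTRF1, a release factor, rose by 0.38 (adjusted p = 0.00024) and had risen by 0.59 at day 1 and 0.58 at day 3. Its change net of sgNS, 0.19, did not pass (adjusted p = 0.27). MTX1, a metaxin of the outer membrane, rose from 15.7, 15.2 and 15.6 CPM to 18.2, 22.4 and 23.6 CPM (0.46 ± 0.087, adjusted p = 0.00029), in contrast to the import genes TOMM7 and AGK that fell. Of 29 genes of the TCA cycle 8 fell and 0 rose, among them SUCLA2 (-0.35), IDH3B (-0.29) and MDH2 (-0.27). With guide 1, 0 of the 29 passed, and in sgNS cells 11 rose and 1 fell. Of 20 iron-sulfur cluster genes 3 fell, with BOLA3 (-0.45) and ISCU (-0.29) the largest changes, and of 19 chaperones and proteases 5 fell, with DNAJA3 (-0.41) and HSPD1 (-0.25), although on log2(TPM + 1) 3 fell and 2 rose.

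The mRNAs of mitochondrial DNA moved little. Of 13 tested, 1 rose (MT-ATP6, 0.09) and 2 fell (MT-ND3, -0.09, and MT-ND2, -0.07), and with length and GC content as an offset 3 rose and 0 fell. Their share of all counts, ribosomal RNAs of mitochondria included, was 31.3% ± 0.289 (SD, n = 3) in DMSO and 31.4% ± 0.0692 (SD, n = 3) in DOX. The ranges of 31% to 31.5% and 31.4% to 31.5% overlapped, and the difference of 0.164 percentage points did not pass a two-sided exact permutation test (p = 0.60, where 0.10 is the smallest p that 3 against 3 allows). It was 0.01 without DMSO replicate 1 and 0.297 without DMSO replicate 2. As a share of summed TPM the difference was 1.36 percentage points, and the ranges of 41% to 42.2% in DMSO and 42.6% to 43.2% in DOX did not overlap. In sgNS cells the share was 26.3% in DMSO and 29.5% in DOX with no overlap (exact permutation p = 0.10), and 12 of the 13 mRNAs rose there. With guide 1 it went the other way, from 33.6% in DMSO to 33% in DOX, also with no overlap (exact permutation p = 0.10, the smallest that 3 against 2 allows).

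**Figure D3:**
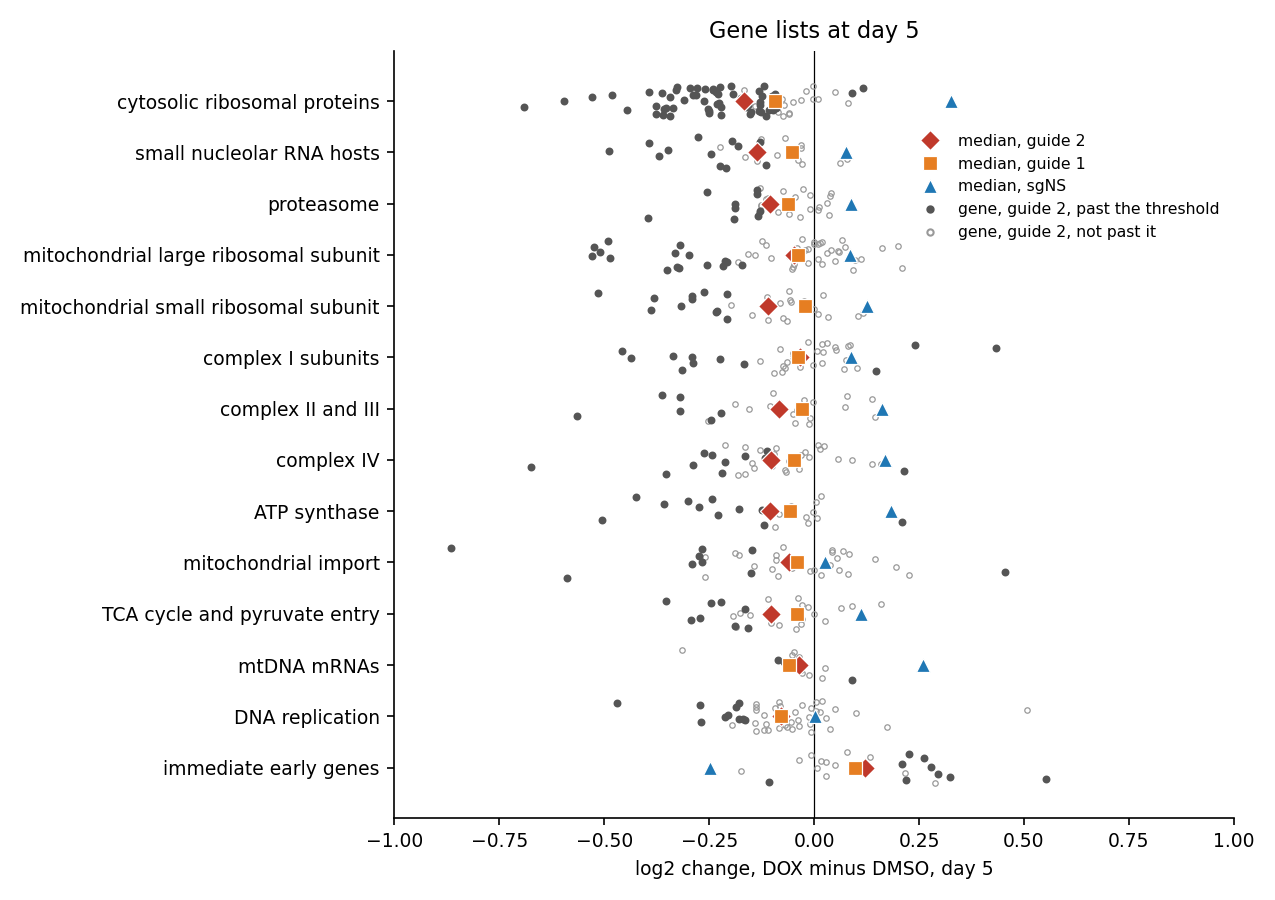
Log2 change of each member of 14 gene lists with guide 2 at day 5 (x axis; filled points past the threshold, open points not), with the list medians for guide 2 (diamond), guide 1 (square) and sgNS (triangle). In cytosolic ribosomal proteins the guide 2 median is -0.17, that of guide 1 -0.09 and that of sgNS 0.33; the guide 2 medians of complex I subunits and mtDNA mRNAs turn above 0 with transcript length as an offset.

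The promoters of genes that fell at day 5 were compared with those of all tested genes, since ETS-family factors such as GABP bind the letters CCGGAAG. RefSeq promoters of GRCh38.p14, from 250 bases before the gene's start to 50 after it, were found for 11146 tested genes, 813 of those that fell and 388 of those that rose. The letters were searched on both strands, and a match can share bases with a match of another motif. They stood in 19.2% of all these promoters, in 27.2% of the genes that fell and in 18% of the genes that rose. Among 75 genes with a promoter that fell at both day 3 and day 5 the share was 37.3%, and among 49 that fell with both guides and net of sgNS it was 40.8%. ZBTB11 itself, the gene the guides target, was counted in each set of genes that fell and holds the letters. The shares of other letters are given in the order of all promoters, genes that fell, genes that rose, genes that fell at both days and genes that fell in all 3 tests. CGCATGCG, bound by NRF1, stood in 4.02%, 5.17%, 2.84%, 1.33% and 0.00%. AAGATGGCG, bound by YY1, stood in 3.96%, 5.04%, 6.19%, 0.00% and 4.08%. TCTCGCGAG stood in 1.44%, 2.71%, 2.06%, 4.0% and 6.12%, where the last pair are 3 promoters each. The E-box CACGTG stood in 9.90%, 9.84%, 10.6%, 9.33% and 8.16%. A match is a description of the letters, and no test was made of these shares.

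The promoters below are examples from genes that fell at day 3 and day 5, 7 of them with the ETS letters and 1 without. They do not mirror the share in that set, where 28 of 75 promoters held the letters. The promoters of C17orf75 and LINC00920, which are not shown, held no match. Each is the RefSeq sequence of GRCh38.p14 from 180 bases before the start to 20 bases after the start position, written 5′ to 3′ on the gene's own strand. Capitals mark CCGGAAG, or CTTCCGG where the match is on the opposite strand.
ZBTB11 (chr3:101677113-101677312, minus strand): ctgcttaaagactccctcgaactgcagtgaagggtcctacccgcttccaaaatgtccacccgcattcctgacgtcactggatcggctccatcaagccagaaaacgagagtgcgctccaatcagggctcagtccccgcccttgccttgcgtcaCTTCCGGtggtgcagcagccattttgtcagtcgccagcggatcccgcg
MAN2C1 (chr15:75368588-75368787, minus strand): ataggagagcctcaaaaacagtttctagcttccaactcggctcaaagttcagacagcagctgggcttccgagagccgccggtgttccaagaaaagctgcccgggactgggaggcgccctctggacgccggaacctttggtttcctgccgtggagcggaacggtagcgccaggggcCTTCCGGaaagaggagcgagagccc
MRPL48 (chr11:73787694-73787893, plus strand): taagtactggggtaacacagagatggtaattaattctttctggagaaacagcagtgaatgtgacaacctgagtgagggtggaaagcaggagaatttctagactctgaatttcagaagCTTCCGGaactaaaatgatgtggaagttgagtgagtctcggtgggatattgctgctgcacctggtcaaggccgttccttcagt
MRPL40 (chr22:19432365-19432564, plus strand): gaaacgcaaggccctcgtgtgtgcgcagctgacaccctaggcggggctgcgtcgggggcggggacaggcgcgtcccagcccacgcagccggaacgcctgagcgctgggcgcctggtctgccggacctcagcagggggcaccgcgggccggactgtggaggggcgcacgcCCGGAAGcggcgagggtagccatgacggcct
MRPL30 (chr2:99181004-99181203, plus strand): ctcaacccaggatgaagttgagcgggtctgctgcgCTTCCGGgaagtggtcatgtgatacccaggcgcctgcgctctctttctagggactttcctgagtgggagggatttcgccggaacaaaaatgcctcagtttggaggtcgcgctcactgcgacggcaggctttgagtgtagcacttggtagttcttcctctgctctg
EEFSEC (chr3:128153301-128153500, plus strand): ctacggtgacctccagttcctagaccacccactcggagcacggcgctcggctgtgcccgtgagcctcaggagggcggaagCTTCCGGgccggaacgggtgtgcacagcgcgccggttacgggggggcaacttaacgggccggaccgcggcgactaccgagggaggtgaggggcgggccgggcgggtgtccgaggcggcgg
DDX1 (chr2:15591688-15591887, plus strand): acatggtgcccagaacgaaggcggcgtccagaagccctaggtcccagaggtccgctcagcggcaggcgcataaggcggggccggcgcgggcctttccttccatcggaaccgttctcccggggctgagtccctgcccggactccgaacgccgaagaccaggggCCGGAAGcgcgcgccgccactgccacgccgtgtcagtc
AGK (chr7:141551230-141551429, plus strand): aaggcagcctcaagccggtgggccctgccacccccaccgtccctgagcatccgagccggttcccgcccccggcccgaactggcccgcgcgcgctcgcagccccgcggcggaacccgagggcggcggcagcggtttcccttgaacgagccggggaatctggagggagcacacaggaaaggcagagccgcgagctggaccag

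The match began 28 bases before the start in ZBTB11, 5 in MAN2C1, 11 in MRPL40, 18 in DDX1, 63 in MRPL48, 100 in EEFSEC and 145 in MRPL30. It lay on the gene's own strand in MRPL40 and DDX1 and on the opposite strand in the others. AGK held no match in its window.

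A second group of genes fell with guide 2 but neither with guide 1 nor at day 3, and rose in sgNS cells. TOMM7, a small subunit of the translocase of the mitochondrial outer membrane, went from 159.6, 145.7 and 142.6 CPM to 82.0, 83.4 and 80.9 CPM with guide 2. In sgNS cells it went from 99.4, 108.6 and 97.7 CPM to 179.9, 193.1 and 181.3 CPM. Neither pair of groups overlapped, and the DMSO libraries of the 2 lines differed as well, with those of guide 2 the higher. The log2 change was -0.87 ± 0.048 with guide 2 (adjusted p = 2.1e-12), 0.86 in sgNS cells (adjusted p = 2.8e-13) and -0.09 with guide 1 (adjusted p = 0.57). Net of sgNS it was -1.73 (adjusted p = 3.5e-16).

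SKP1, the adaptor of SCF ubiquitin ligases, showed the same order of values, with 191.3, 179.2 and 202.7 CPM in DMSO and 114.9, 111.0 and 112.3 CPM in DOX (-0.76 ± 0.045, adjusted p = 3.2e-11). In sgNS cells its change was 0.73 (adjusted p = 1.7e-11). The ribosomal protein gene RPL30 went from 411.9, 410.9 and 416.1 CPM to 247.8, 259.9 and 259.3 CPM (-0.69 ± 0.028, adjusted p = 2.2e-25), and by 0.68 in sgNS cells (adjusted p = 6.6e-26). POLE4 (-0.78), a subunit of DNA polymerase epsilon, and EEF1E1 (-0.75), a scaffold of the tRNA synthetase complex, had sgNS changes of 0.56 and 0.59. GEMIN2 (-0.66), of the SMN complex that assembles spliceosomal particles, and GABARAPL2 (-0.54), an autophagy protein, rose in sgNS cells by 0.38 and 0.60. WDR31 (-0.74, adjusted p = 5.8e-05) had no such rise (0.04). RPL30, ATP5F1E, UQCRH and other short, highly expressed genes have processed pseudogenes, and reads can be split between such copies.

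The cytosolic ribosome was the list with the most genes past the threshold. Of its 79 protein genes 60 fell and 2 rose with guide 2 (median -0.17), beside 6.0% and 3.0% over all genes, and under the length offset, the length and GC offset and log2(TPM + 1) 43, 43 and 45 fell while 4, 6 and 6 rose. RPL30, RPL7 (-0.60) and RPS13 (-0.53) were among those that fell most. Together these genes took 5.80% ± 0.115 (SD, n = 3) of all counts in DMSO and 5.18% ± 0.0411 (SD, n = 3) in DOX. The ranges, 5.68% to 5.90% and 5.13% to 5.21%, did not overlap, and the exact permutation p was 0.10, the smallest that 3 against 3 allows. In sgNS cells the share went from 5.92% to 6.93% and all 79 genes rose (54 on log2(TPM + 1), where 3 fell), and with guide 1 22 fell and 0 rose. Among noncoding RNAs whose introns hold small nucleolar RNAs, 12 of 25 fell and 0 rose, among them SNHG5 (-0.39) and SNHG29 (-0.35). With guide 1, 1 of the 25 fell and 0 rose, and in sgNS cells 9 rose and 5 fell. Of 31 proteasome genes, beside 6.0% over all genes, 9 fell and 0 rose, with PSMA2 (-0.40) the largest change. With guide 1, 0 of the 31 passed, and in sgNS cells 14 rose and 1 fell, with PSMA2 at 0.40.

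Immediate early genes, which growth factor signals switch on within minutes, went the other way. Of 22 tested 9 rose and 1 fell (median 0.12), against 3.0% higher over all genes, and the split was 8 to 2 with length and GC content as an offset. EGR2 stood at 7.48, 7.82 and 7.33 CPM in DMSO and 11.1, 11.2 and 11 CPM in DOX (0.55 ± 0.10, adjusted p = 6.5e-05). The 3 DOX libraries were close together and above every DMSO library, yet near the 10.1, 11.6 and 10.6 CPM of sgNS cells in DMSO. FOSB went from 188.4, 192.6 and 189.8 CPM to 235.6, 235.3 and 229.3 CPM (0.29 ± 0.029, adjusted p = 2.9e-11), again without overlap. JUN (0.28), KLF6 (0.26), EGR3 (0.32) and EGR1 (0.22) rose as well. With guide 1 FOSB changed by 0.30 (adjusted p = 2.3e-08), EGR2 by 0.44 and EGR3 by 0.45, all past the threshold. In sgNS cells 13 of the 22 fell and 0 rose, with FOSB at -0.56 (adjusted p = 1.1e-21). The FOSB level of sgNS cells in DMSO, 256.6 to 277.4 CPM, was above both levels of guide 2, so the lines differed in FOSB without DOX.

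Genes of RAS-MAPK signalling were divided. Of 27 output genes 4 rose and 3 fell, where 3.0% and 6.0% of all genes did. ETV4, an ETS factor induced by ERK, went from 24.6, 25 and 24.8 CPM to 19.8, 17.2 and 17.5 CPM (-0.44 ± 0.067, adjusted p = 2.1e-06), with -0.46 for guide 1 (adjusted p = 5.3e-05) and -0.09 in sgNS cells. Its DOX libraries were all below its DMSO libraries with guide 2. AREG, a ligand of the EGF receptor, changed by -0.41 with guide 2 and by 0.13 with guide 1, a difference past the threshold (adjusted p = 0.00024). SPRY1 (0.15), a feedback inhibitor, and CCND1 (0.14), cyclin D1, rose slightly. Of the 22 genes from RAS to ERK 3 rose and 0 fell, namely SHOC2 (0.29), MAPK3 (0.24) and MAP2K2 (0.12). Net of sgNS 10 output genes were higher and 3 lower, and 9 of the 22 kinase pathway genes were higher. Over all genes 8.88% were higher and 10.5% lower net of sgNS. However, 8 and 9 genes of these lists fell in sgNS cells itself, where 8.47% of all genes fell.

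The largest rises at 5 CPM or more belonged to genes of mixed function. PLPPR3, a membrane protein of the lipid phosphatase-related family, went from 32.9, 32.6 and 32.4 CPM to 49.3, 48.6 and 44.2 CPM (0.54 ± 0.053, adjusted p = 2.9e-11). The groups were far apart, but guide 1 gave -0.16 and the sgNS DMSO libraries already stood at 45.3 to 49.2 CPM. UBTD1 (0.59), SNX7 (0.50), DYRK2 (0.47), IGF2 (0.47) and KLHL15 (0.45) rose as well. IGF2, insulin-like growth factor 2, rose from 15.6, 18.3 and 17.2 CPM to 23.9, 24.3 and 22.2 CPM (adjusted p = 1.7e-06), with 0.17 for guide 1 and 0.00 for sgNS. SERPINA3, a secreted protease inhibitor, went from 263.1, 260.9 and 261.9 CPM to 343.5, 331.1 and 335.6 CPM (0.36 ± 0.027, adjusted p = 5.2e-15). It had fallen at day 3 with the same guide (-0.32, adjusted p = 4.9e-11) and it fell with guide 1 at day 5 (-0.12, adjusted p = 0.042).

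CENPT, a kinetochore protein, rose by 0.48 ± 0.033 (adjusted p = 1.5e-16), from 134.6 to 139.7 CPM in DMSO to 184.4 to 196.4 CPM in DOX. CENPT overlaps THAP11, so reads of the 2 genes may be shared. It also rose with guide 1 (0.53) and in sgNS cells (0.38), and net of sgNS the change of 0.10 did not pass (adjusted p = 0.13). Higher with both guides and net of sgNS were EGR2, ZNF408 (0.44), EGR3, SLC25A36 (0.32), FOSB, KLF6 and HOXA3 (0.24). SLC25A36 is a carrier of pyrimidine nucleotides in the mitochondrial inner membrane. It was measured at 166.5, 173.8 and 161.8 CPM in DMSO and 207.3, 205.4 and 212.9 CPM in DOX, without overlap, and its rise was larger with guide 1 (0.49) than with guide 2 by 0.17 on the log2 scale (adjusted p = 0.029). It rose in sgNS cells as well, by 0.19, and net of sgNS its change was -0.01 with length and GC content as an offset against 0.13 without.

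Lists of cell growth and stress are likewise set beside 6.0% lower and 3.0% higher over all genes. Of 22 glycolysis genes 7 fell and 1 rose: TPI1 (-0.27), ENO1 (-0.22) and LDHA (-0.16) fell and PKM (0.15) rose. PKM rose in sgNS cells too (0.15, adjusted p = 0.0003), and net of sgNS its change was -0.0055 (adjusted p = 0.96). Of 50 DNA replication genes 10 fell and 0 rose, among them RRM1 (-0.47), GINS4 (-0.27) and PCNA (-0.21), and of 41 genes of G2 and mitosis 6 fell, with CENPA (-0.30) and ECT2 (-0.28). Of 49 ribosome biogenesis genes 9 fell, with UTP18 (-0.26) and NOP2 (-0.24), although on log2(TPM + 1) 1 fell and 1 rose. Of 31 targets of ATF4, the factor of the integrated stress response, 2 fell (SHMT2, -0.25, and WARS1, -0.24) and 0 rose, a share close to that of all genes that fell. None of 18 p53 targets passed (CDKN1A, 0.22, adjusted p = 0.67, and FAS, -0.20, adjusted p = 0.57). In the unfolded protein response 4 of 22 rose, such as SEL1L (0.26) and SYVN1 (0.20), and 4 fell, such as PDIA3 (-0.47) and PDIA6 (-0.13). Of 26 integrins, laminins and collagens 6 rose and 0 fell, such as COL5A1 (0.28), COL6A2 (0.16) and ITGA3 (0.13), but with length and GC content as an offset 0 rose and 3 fell.

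Single genes of other lists also passed, beside 6.0% lower and 3.0% higher over all genes. Of 23 NRF2 targets FTH1 (-0.29) and NQO1 (-0.17) were among 3 that fell. The NF-kB genes NFKBIA (-0.26) and CXCL1 (-0.37) fell, in a list of 16 tested where 2 fell and 1 rose. TXNIP, which restrains glucose uptake, changed by -0.20 and the long noncoding RNA NORAD by -0.24. Of 40 autophagy and lysosome genes 8 fell and 2 rose, with CTSD (0.30) the larger rise, but on log2(TPM + 1) the split was 5 rising and 3 falling. CLDN4, a tight junction protein, rose by 0.29 with guide 2 and changed by -0.01 with guide 1, a difference past the threshold (adjusted p = 0.0007).

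The 3 guides were then compared at day 5. Tested against guide 1, 434 genes responded differently to guide 2 (2.58%), 135 more positively (0.803%) and 299 more negatively (1.78%). With guide 1 alone 191 genes changed (1.14%), 61 higher (0.363%) and 130 lower (0.773%), against 13 higher and 6 lower with limma on log2(TPM + 1). These 2 counts, 434 and 191, came to 245 and 27 without guide 1 DMSO replicate 1, and the second to 65, 74 and 85 without DMSO replicate 2, DOX replicate 1 and DOX replicate 3. Of the 1008 genes that fell with guide 2, 68 also fell with guide 1, which is 6.75% of the first list and 52.3% of the second, and 1 rose. Of the 505 that rose, 20 also rose with guide 1 (3.96% and 32.8%) and 4 fell. The sign was shared by 72% of the genes that fell and 59.8% of those that rose, with median guide 1 changes of -0.05 and 0.02.

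In sgNS cells 2915 genes changed with DOX (17.3%), 1491 higher (8.87%) and 1424 lower (8.47%), more than with either ZBTB11 guide. With limma on log2(TPM + 1) the sgNS split was 258 higher and 4758 lower, around a median of -0.157 over all genes, so the counts of overlap with sgNS that follow hold for the count scale. Of the 1008 genes that fell with guide 2, 565 (56.1%) rose in sgNS cells and 35 (3.47%) fell. Of the 505 that rose, 214 (42.4%) fell in sgNS cells and 23 (4.55%) rose. The test of the difference, guide 2 net of sgNS, was passed by 3250 genes (19.3%), 1493 higher (8.88%) and 1757 lower (10.5%), and it shares its guide 2 libraries with the DOX comparison of guide 2. With limma on log2(TPM + 1) the net split was 3878 higher and 468 lower, around a median of 0.188 over all genes. Genes past both in 1 direction numbered 388 higher (2.31%) and 860 lower (5.12%).

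**Figure D4:**
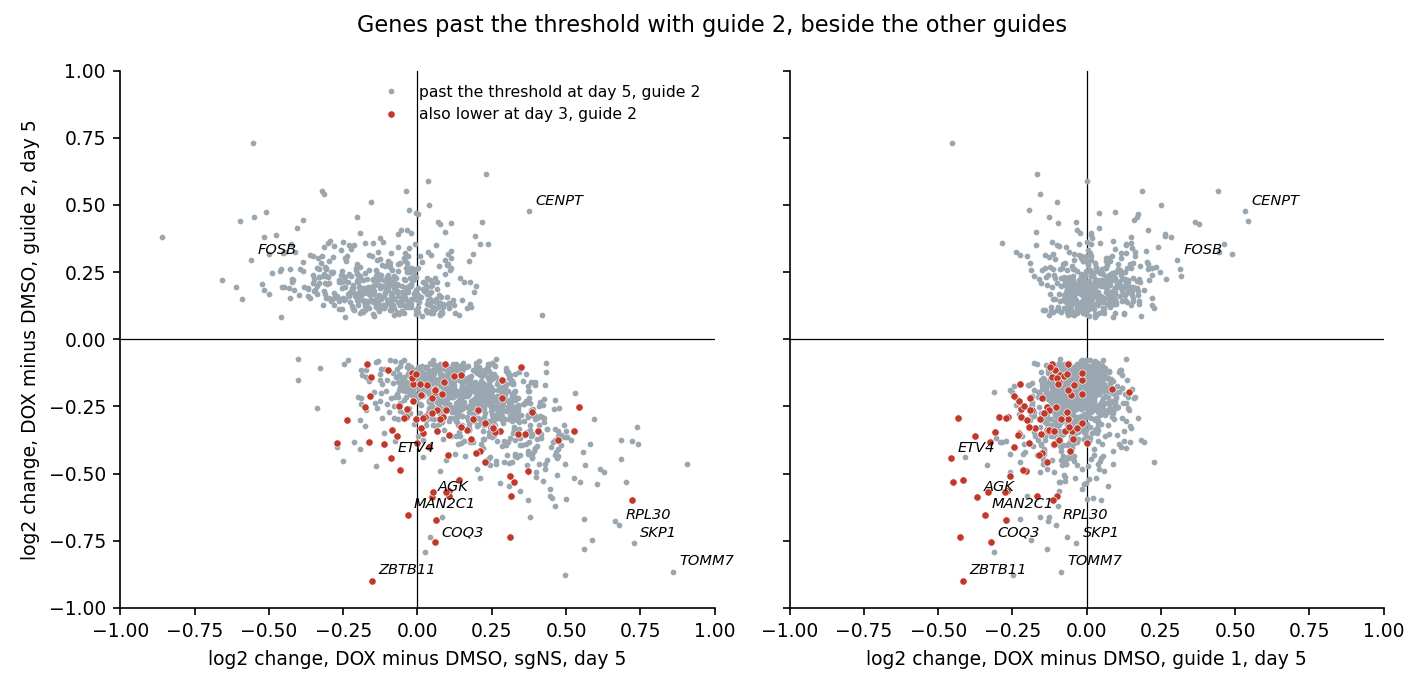
Log2 change with guide 2 at day 5 (y axes) against the change in sgNS cells (left x axis) and with guide 1 (right x axis) for the 1455 genes past the threshold with guide 2 at 5 CPM or more; the 88 that also fell at day 3 are red. Most genes that fell with guide 2, TOMM7, SKP1 and RPL30 among them, lie right of 0 in sgNS cells, and ZBTB11, MAN2C1 and AGK lie well left of 0 with guide 1.

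Transcript length and base composition moved with these responses. The median relative length (effective length from the deposited counts and TPM, relative to that of a typical gene) was 0.951 over all tested genes, 1.416 in those that rose with guide 2 and 0.693 in those that fell, against 0.709 and 1.729 in those that rose and fell in sgNS cells. The median GC content was 48.9% over all genes, 55.8% in those that rose with guide 2 and 45.5% in those that fell. The 59 genes lower in all 3 tests had a relative length of 0.579. With length and GC content as an offset, 364 genes rose and 1135 fell with guide 2, and 51.9% and 77% of the genes above were called again in the same direction. The part of length and base composition in the responses was not tested further.

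Over time, the genes that fell at day 5 separated into those already lower at day 3 and those that were not. At day 3, 195 of 16645 genes changed with guide 2 (1.17%), 46 higher (0.276%) and 149 lower (0.895%). Of those 149, 89 (59.7%) were among the 1008 that fell at day 5, where they make up 8.83%, and 5 rose. These 89 had a median change of -0.33 at day 5, -0.24 at day 3 and -0.15 with guide 1, where 86 were below 0, 27 fell and 0 rose. In sgNS cells their median was 0.07, with 34 rising and 9 falling. The other 919 genes had medians of -0.22 with guide 2, -0.04 with guide 1 and 0.17 in sgNS cells, where 531 rose and 26 fell. Of the 505 genes that rose at day 5, 14 had risen at day 3 (2.77%, and 30.4% of the 46) and 5 had fallen.

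MAN2C1 rose by 0.32 at 5 hr (adjusted p = 9.2e-07), then changed by -0.28 at day 1 and -0.55 at day 3. AGK changed by 0.00, -0.05 and -0.54 at these times, COQ3 by -0.19, -0.19 and -0.86, and ZBTB11 by -0.17, -0.59 and -0.79. ZBTB11 had fallen at 5 hr (adjusted p = 0.0072) and day 1 (adjusted p = 1.3e-09), while AGK and COQ3 were past the threshold only from day 3. TOMM7 changed by -0.02, -0.05 and 0.04 and SKP1 by -0.04, 0.04 and 0.03 before their falls at day 5. The change at day 5 minus that at day 3 was tested in 1 fit of all libraries, in which 499 of 18061 genes passed (2.76%), 175 higher (0.969%) and 324 lower (1.79%). The majority turned to 306 higher and 151 lower with limma on log2(TPM + 1), and the split was 218 and 211 without the filter on low counts. TOMM7 (-0.91, adjusted p = 0.00056), SKP1 (-0.79), POLE4 (-0.65), RPL30 (-0.61), COX14 (-0.61) and EEF1E1 (-0.59) were more negative at day 5, as were 30 of the 79 cytosolic ribosomal protein genes. UBTD1 (0.70), SERPINA3 (0.69), SNX7 (0.68), EGR2 (0.57), DYRK2 (0.57), MTX1 (0.55) and FOSB (0.43) were more positive. For ZBTB11 the difference was -0.11 (adjusted p = 0.64), and for MAN2C1, AGK, COQ3, MRPL40 and ETV4 it did not pass either (adjusted p from 0.50 to 0.89). At 5 hr 2659 of 15623 genes changed with guide 2 (17%), 1304 higher (8.35%) and 1355 lower (8.67%), and at day 1 1282 of 16275 (7.88%), 558 higher (3.43%) and 724 lower (4.45%). Net of sgNS, 6400 genes differed at 5 hr (41%; 20.4% higher and 20.6% lower), 8 at day 1 (0.0492%; 1 higher, 0.00614%, and 7 lower, 0.043%) and 40 at day 3 (0.24%; 8 higher, 0.0481%, and 32 lower, 0.192%), so more genes differed net of sgNS at day 5 than at day 1 or day 3. At an unadjusted p under 0.05 the net counts were 7351, 1075 and 1374 genes at these times and 5000 at day 5. Of the 1008 genes that fell at day 5, 183 had fallen and 54 risen at 5 hr, and 92 had fallen and 41 risen at day 1.

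**Figure D5:**
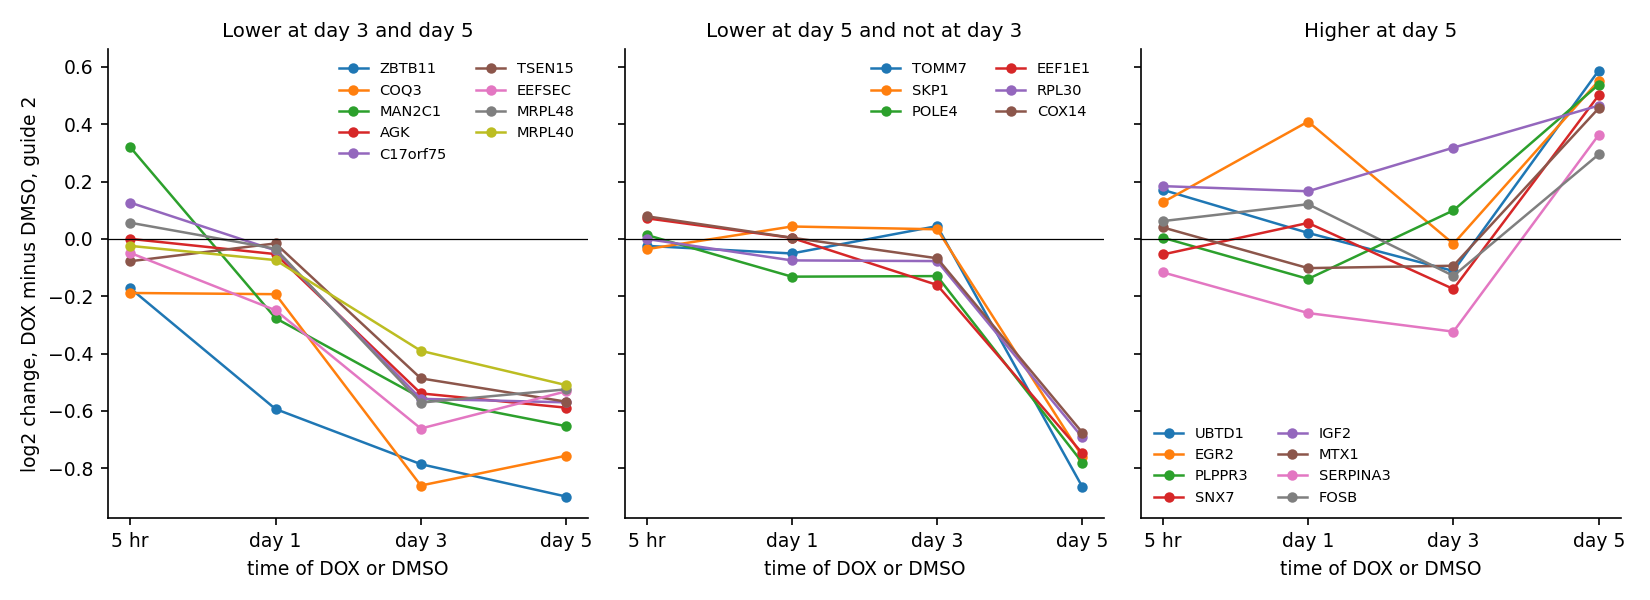
Log2 change with guide 2, DOX minus DMSO (y axis, shared), at 5 hr and days 1, 3 and 5 (x axis, evenly spaced) for genes lower at day 3 and day 5 (left), genes lower at day 5 and not at day 3 (middle) and genes higher at day 5 (right). ZBTB11 goes from -0.17 to -0.90, TOMM7 stays within 0.05 of 0 until day 3 and is -0.87 at day 5, and SERPINA3 goes from -0.32 at day 3 to 0.36 at day 5.

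The label of a pancreatic cancer line was set against cell type markers. Of 9 ductal epithelial markers 5 were tested, with a summed level of 2054 to 2098 CPM in DMSO and 2177 to 2245 CPM in DOX, and CDH1, CFTR, EPCAM and KRT7 were too low to test. SOX9 (0.22) and KRT8 (0.17) rose with guide 2, and KRT19 (-0.14) fell but missed the threshold under RLE scaling. Acinar and endocrine markers (1 of 9 tested, 0.320 to 0.449 CPM) and immune markers (1 of 5, 0.965 to 1.52 CPM) were near 0, with PRSS1, INS, PTPRC and CD3E among those too low to test. Of 6 fibroblast markers 3 were tested, at 626 to 637 CPM in DMSO and 639 to 656 CPM in DOX, with DCN, LUM and PDGFRB too low, and of 4 endothelial markers 1, at 42.3 to 53.1 CPM. None of these passed the test, and their part in the results was not tested.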

How the data were processed

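Poly(A) RNA of the cells was prepared with the Watchmaker mRNA kit and sequenced on an Element AVITI, per the labels' protocols. The authors deposited expected counts per gene, estimates that need not be whole, and TPM values, normalized by the authors to transcript length and library size. The submitters' processing notes name RSEM and the build GRCh38.p14. Neither the aligner nor the annotation nor the strand setting is given in the sources used here. Both tables hold 78932 genes.

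Expected counts were rounded to whole numbers (5.13% of values were not whole) and tested with edgeR 4.0.16 in R 4.3.3: filterByExpr by group, TMM scaling, robust quasi-likelihood F test, a mean per group, no block. All 17 day 5 libraries entered 1 fit, and day 5 minus day 3 used 1 fit of all 70. For the changes at 5 hr, day 1 and day 3, the libraries of each time were filtered and fitted on their own. P-values were adjusted by Benjamini-Hochberg over all genes tested, with a threshold of 0.05. Shares of counts were compared with an exact permutation test. The tests were checked on simulated data. Coordinates and promoters are from RefSeq tables of GRCh38.p14, and GC content is that of the longest transcript in the reference annotation.

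Members and lists were chosen with earlier results of these data known. Genes named are, at a mean of at least 5 CPM, the 15 largest changes in each direction with guide 2. Under the same minimum come the 8 largest net of sgNS and the 5 largest between guides and between day 5 and day 3. So do the 8 largest in each direction passing with both guides and net of sgNS. Without that minimum, ZBTB11, its neighbours and up to 5 members of each list described are named. Others are said to have been chosen later. Alternatives tried were a fit of all libraries or of only the groups compared, a replicate block, an offset for transcript length, RLE scaling, omission of the genes of mitochondrial DNA or of the low-count filter, DESeq2 1.42.0, limma 3.58.1 on log2(TPM + 1) and log2(TPM + 0.1), and leaving out each library. An offset for length and GC content, and the alternatives for the count passing with both guides and net of sgNS, were added after seeing the data. Replicate numbers were not used as pairs: same-numbered DMSO and DOX libraries had correlations of their deviations between -0.043 and 0.059.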

Additional observations from a re-analysis of the deposited data

Results flagged for a closer look

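Responses that differed between guides or between times, each by an edgeR test of the difference, were the following. Between the 2 ZBTB11 guides 434 genes differed, between guide 2 and sgNS 3250 genes, and between day 5 and day 3 with guide 2 499 genes. With guide 2 the change was more negative than with guide 1 for TOMM7 by -0.78 on the log2 scale, SKP1 by -0.73, POLE4 by -0.65, RPL30 by -0.59, EEF1E1 by -0.56, COX14 by -0.55, WDR31 by -0.67, GEMIN2 by -0.51, ZBTB11 by -0.48, MAN2C1 by -0.31, MRPL40 by -0.25 and SLC25A36 by -0.17. It was more positive for PLPPR3 by 0.69, MTX1 by 0.58 and SERPINA3 by 0.48.

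Compared with day 3, the day 5 change was more negative for TOMM7 by -0.91, SKP1 by -0.79, POLE4 by -0.65, RPL30 by -0.61, COX14 by -0.61, EEF1E1 by -0.59, GEMIN2 by -0.47 and CENPT by -0.23. It was more positive for UBTD1 by 0.70, SERPINA3 by 0.69, SNX7 by 0.68, EGR2 by 0.57, DYRK2 by 0.57, MTX1 by 0.55, PLPPR3 by 0.44, KLHL15 by 0.44, FOSB by 0.43, KLF6 by 0.40 and HOXA3 by 0.25.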

How the results depend on the processing

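The fall of ZBTB11 with guide 2 kept its direction and side of the threshold under every alternative run, with log2 changes from -0.941 (length offset) to -0.762 (limma on log2(TPM + 1)). The 1513 genes changed with guide 2 came to between 1016 (DESeq2) and 1602 under the count-based alternatives, to 1022 to 1328 with a library left out, and to 880 and 870 with limma on log2(TPM + 1) and log2(TPM + 0.1). The split of 505 higher and 1008 lower became 364 and 1135 with the length and GC offset and 432 and 448 on log2(TPM + 1). In the same order, the 2 TPM scales gave 212 and 216 genes for the difference between guides (434 reported), 5016 and 4987 for sgNS (2915), 19 and 20 for guide 1 (191), and 8 and 8 passing in all 3 tests (77), 6 of them higher and 2 lower on each scale. On log2(TPM + 1) 3878 of 4346 genes net of sgNS were higher. There the median of all genes was 0.188 net of sgNS and -0.157 in sgNS cells, so signs net of sgNS are relative to that shift.

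DESeq2 called 124 genes with guide 1, and 1 fit of all libraries left 51 genes passing in all 3 tests. The difference in the share of counts from mitochondrial DNA, 0.164 percentage points, was 1.36 as a share of summed TPM and ranged from 0.01 to 0.297 with a library left out. With a library left out, the difference between guides ranged from 245 to 514 genes, guide 1 from 27 to 140, and the 3 tests together from 19 to 108. Counts moved by over 1.5 times without guide 1 DMSO replicate 1 (245, 27 and 19 for these results), DMSO replicate 2 (65 for guide 1 and 35 for the 3 tests), DOX replicate 1 (74 and 42) and DOX replicate 3 (85 and 43). With a replicate block 1511 genes changed with guide 2, 152 with guide 1 and 370 between guides. The block ended no call of the 131 genes tested for it, and the numbers share no stated pairing.

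Signs reversed as follows. With guide 2, MT-ND3 was 0.091 with the length offset, and with the length and GC offset MT-ND3 was 0.126, RPL24 0.021 and MT-ND2 0.004, while net of sgNS SLC25A36 was -0.01 and COL6A2 -0.188. MRPS23 with guide 2 was 0.048 and 0.053 on the 2 TPM scales. Net of sgNS these scales gave PKM 0.238 and 0.24, AKR1B1 0.066 and 0.068, NOP2 0.18 and 0.182, NIT2 0.008 and 0.008, PCNA 0.009 and 0.01, GINS4 0.011 and 0.01, NQO1 0.066 and 0.066, and NORAD 0.077 and 0.082. The causes were not tested. Of the 131 genes followed across settings, 130 were tested on each TPM scale. Genes that kept their sign but missed the threshold with guide 2 numbered 30 on each TPM scale, 8 with the length and GC offset and 7 with DESeq2. Genes whose sign reversed are not in these counts. The 2 or 3 libraries a group, and depths of 13729945 to 16953821 counts with guide 2, limit what small changes of low genes can be detected.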
